A study of Mus musculus with 19 samples.

Results

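The 4 libraries described here are those titled wild type (WT) with vehicle, 4 of the 19 libraries in the series. They show what cultures labelled as adult microglia expressed under vehicle. The cells came from the cortices of WT C57BL/6 mice aged 10 to 11 months and were kept for 4 weeks in DMEM/F12 that held 10% serum and the growth factor M-CSF (macrophage colony-stimulating factor) at 5 ng/mL. Vehicle was culture medium alone for 6 h, followed by 16 h in fresh medium. RNA with an integrity number above 8.5 went into QuantSeq 3′ libraries, which read 1 tag near the 3′ end of each polyadenylated transcript. The study also held LPS-treated and APP-transgenic cultures (15 libraries in all), which enter no comparison here. With a single group there is no contrast and no test, so levels are described, for the main genes with their values in each library or their spread. The labels name no animal or culture for a library, so this spread may be partly technical.

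Microglia are the resident macrophages of the brain parenchyma. They arise from the yolk sac, depend on signalling through the receptor Csf1r and on the factor TGF-β made in brain tissue, and in the healthy brain carry a homeostatic signature that includes P2ry12, Tmem119, Cx3cr1 and Sall1. Outside the brain, and in serum-containing culture, this signature is known to fade while general macrophage genes persist. In plaque-bearing or demyelinated tissue microglia take on a disease-associated state, marked by genes such as Apoe, Lpl, Spp1 and Gpnmb.

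Levels are given as CPM, the counts of a gene scaled to a common library total, after edgeR's TMM scaling, which offsets differences in library makeup. Because a 3′ library gives about 1 tag per transcript, CPM were compared between genes without division by length. Where 4 values follow a gene, they are replicates 1, 2, 3 and 4 in that order. Library totals were between 17712123 counts in replicate 4 and 31248988 in replicate 1, and 12238 to 13195 of the 16941 genes in the tables had a count. A floor of 3 counts lay at 0.0968 to 0.161 CPM, for counting error only. Of the 16941 genes, 8255 (48.7%) averaged at least 10 CPM, 1862 at least 100 CPM and 121 at least 1000 CPM, while 1937 were at 0 in all 4 libraries. The median gene stood at 9.21 CPM, and ranks run from 1 for the highest mean.

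Replicate 4 was the lowest library for most macrophage markers, and results that rest on it are given with and without it. The 20 pan-myeloid markers summed to 24804, 22496, 24813 and 10441 CPM. Replicate 4 was therefore at 0.434 of the mean of the other replicates. It was the lowest library for 16 of the 20 genes, where it was the lowest for 28.9% of all genes of at least 10 CPM. The lysozyme gene Lyz2 was 51.6% of the sum. Without Lyz2 the sums were 13070, 8384, 13002 and 5541 CPM, with replicate 4 lowest and replicate 2 also below replicates 1 and 3. In bulk RNA, fewer cells of a type and less RNA per cell cannot be told apart. The labels number these libraries 9, 21, 41 and 57 without saying what the numbers count. The Y-linked gene Ddx3y was at 0, 164, 129 and 0 CPM, so replicates 2 and 3 held male cells and replicates 1 and 4 held none of its counts. The part that library number or sex plays in the spread was not tested.

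The most abundant transcripts combined iron storage, cytoskeleton, lysozyme, translation and mitochondrial genes with Lrrc17, Npffr1 and Or8b44, which are not macrophage markers. The 25 highest genes held 15.8% ± 1.22 of the counts (SD, n = 4), and 475 genes held 50% of them. Fth1, the ferritin heavy chain, was at 16971, 11860, 16899 and 10632 CPM (14090 ± 3323, rank 2). Tmsb4x, the actin-binding peptide thymosin β4, was at 13324, 13668, 12860 and 5454 CPM (rank 3). Lyz2, the lysozyme of macrophages, was at 11734, 14112, 11811 and 4900 CPM (10639 ± 3982, rank 4). For the latter pair, replicates 1 to 3 lay close together and replicate 4 was far below them. Actb, cytoplasmic actin, averaged 7264 ± 1959 CPM, and Prdx1, a peroxiredoxin that removes hydrogen peroxide, 5036 ± 1098 CPM.

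Translation genes made up much of the rest of the top 25. Eef1a1, elongation factor 1α, was at 4689, 4076, 4731 and 4015 CPM (4378 ± 385, rank 10), with no library standing apart. Rps29 and Rps23, ribosomal proteins of the small subunit, averaged 4117 ± 820 and 2703 ± 188 CPM. Tpt1, Pabpc1 and Eif2s2, which act in translation or bind its messages, averaged 3898 ± 789, 3446 ± 1067 and 3007 ± 1315 CPM. The 83 ribosomal protein genes, a family chosen after the values were seen, took 7.54% of the counts, and 82 of them averaged at least 10 CPM. The 13 mitochondrially encoded genes took 3.45% ± 0.342 of the counts, led by mt-Nd2 at 6649, 6237, 11398 and 7275 CPM (rank 5). Replicate 3 was the highest library for the mitochondrial sum, at 39938 CPM against 31330 to 33682 CPM in the others. Much of this gap was mt-Nd2, without which the sums were 24681, 27445, 28540 and 24796 CPM. The top 25 also held 4 genes of macrophage lists or cell surfaces: the lysosomal protease Ctsb (3481 ± 1207 CPM, rank 15), the chemokine Ccl6 (3122 ± 1063, rank 18), the membrane protein Itm2b (2921 ± 987, rank 21) and the chemokine Pf4 (2699 ± 1367, rank 25).

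**Figure D1:**
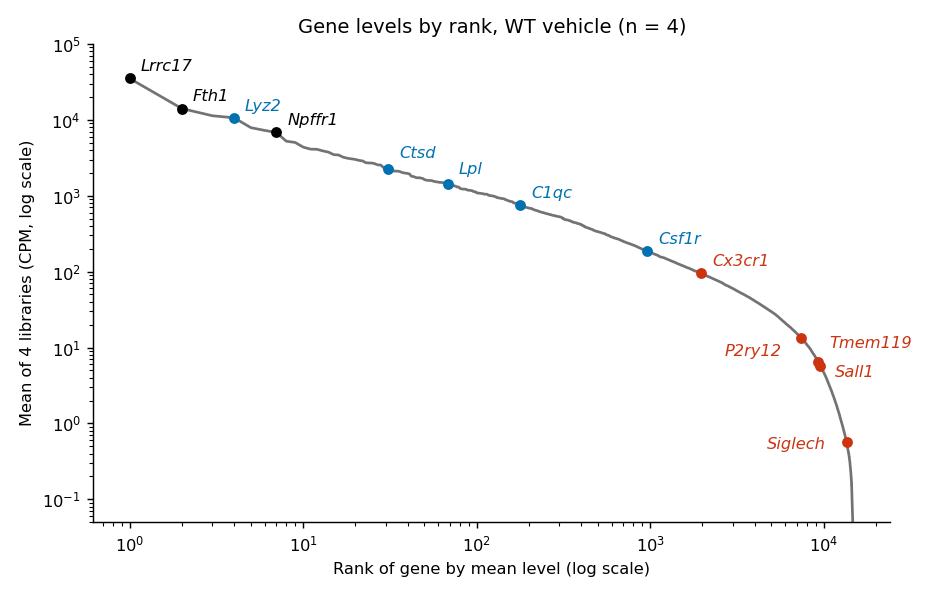
Mean level of each gene (CPM over 4 libraries, log scale) against its rank (log scale) for the WT vehicle libraries, with genes that average 0 left out. Named points show general and disease-associated macrophage genes in blue (Lyz2, Ctsd, Lpl, C1qc and Csf1r, ranks 4 to 964), other top genes in black and homeostatic microglia genes in red, of which Cx3cr1 is at rank 1972 and P2ry12, Tmem119, Sall1 and Siglech are at ranks 7393 to 13555.

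Lrrc17, annotated as a secreted leucine-rich repeat protein, was the highest gene of all, at 35864, 35311, 30887 and 38403 CPM (35116 ± 3124, 3.55% of counts). It varied less than most genes, with an SD of log2(CPM + 1) of 0.13. The gene lies at GRCm38 chromosome 5, 21543559 to 21575904, plus strand, inside Fbxl13 on the opposite strand (GENCODE M21), and the strand setting of the counting is not given in the sources used here. Its last exon holds, in the 3′ UTR at 21575452 to 21575533, a run of 82 bases that is identical to bases 5 to 86 of Bc1, a small noncoding RNA transcribed from chromosome 7 (144914470 to 144914637, plus strand). Bc1 is no row of the tables. The first 30 of the shared bases, in the RNA's sense, are shown because a read from this stretch fits both transcripts:
Bc1, bases 5 to 34: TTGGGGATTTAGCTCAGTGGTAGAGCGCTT
Of the genes in the tables, 7 shared a stretch of 31 bases with Bc1, and Lrrc17 shared the most, 52 such windows, ahead of Tatdn1 with 27. How many of the Lrrc17 counts came from this stretch was not tested.

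Npffr1, a neuropeptide FF receptor, and Or8b44, an olfactory receptor gene, also ranked above every ribosomal protein. Npffr1 was at 9713, 3781, 7943 and 5910 CPM (rank 7), and Or8b44 at 7301, 3316, 5840 and 4465 CPM (rank 8). Both were highest in replicate 1 and lowest in replicate 2. The Npffr1 transcripts hold an unbroken run of 31 A, and 51 of 15776 table genes matched to transcripts (0.323%) hold a run of at least that length. Or8b44 stood alone in its family, which was chosen after the values were seen: of 573 olfactory receptor genes, 29 averaged at least 10 CPM, and the next highest, Or13c7c, was at 583 CPM. Beside them, 13 of 207 vomeronasal receptor genes averaged at least 10 CPM. Whether these counts stem from the receptor genes was not tested.

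General macrophage identity was carried by every marker of its list. All 20 pan-myeloid markers averaged at least 10 CPM, 18 at least 100 CPM, and their median rank was 367.5 against 8471 over all genes. Ctss, a lysosomal protease of antigen-presenting cells, was at 2446, 1612, 2810 and 1074 CPM (rank 39). Tyrobp, the adaptor through which Trem2 signals, was at 1434, 1034, 1140 and 414 CPM (rank 120). Cybb, the catalytic subunit of the phagocyte NADPH oxidase, was at 1035, 499, 1292 and 909 CPM, and was 1 of 4 markers for which replicate 2 was lowest. Adgre1, which encodes the F4/80 antigen, was at 1454, 597, 1337 and 332 CPM. For Tyrobp and Ctss replicate 4 was lowest, and for Adgre1 replicates 2 and 4 were both far below the others. Without replicate 4 the sum of the list was 24037 ± 1335 CPM (n = 3), and with it 20638 ± 6885 CPM (n = 4). The narrow spread of replicates 1 to 3 rested on Lyz2, without which their sums were 13070, 8384 and 13002 CPM.

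The genes given as markers of these cultures ranged from rank 31 to rank 964. Ctsd, a lysosomal aspartic protease, was at 2659, 2357, 2242 and 1781 CPM (2260 ± 364, rank 31) and showed the narrowest relative range of the 4. Lpl, lipoprotein lipase, was at 2018, 1335, 1736 and 562 CPM (1413 ± 632, rank 68). C1qc, a chain of the complement protein C1q, was at 1201, 874, 726 and 242 CPM (761 ± 398, rank 178). Csf1r, the M-CSF receptor, was at 345, 90.7, 239 and 75.3 CPM (187 ± 128, rank 964). Csf1r was thus high in replicates 1 and 3 and low in replicates 2 and 4, while Lpl and C1qc were low only in replicate 4. These 4 genes are shared by microglia and other macrophages.

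Lineage transcription factors were led by Maf, known from resident macrophages, at 1702, 527, 1543 and 216 CPM (997 ± 736, rank 123). Maf split replicates 1 and 3 from replicates 2 and 4. Spi1, which encodes the myeloid master factor PU.1, was at 103, 95.6, 116 and 23.8 CPM, and Irf8, which microglia need, at 101, 79.2, 89.0 and 44.3 CPM. Both were lowest in replicate 4. Mef2a (182 ± 36.9 CPM), Bhlhe41 (159 ± 58.5), Runx1 (74.6 ± 20.7), Mef2c (61.4 ± 44.9) and Bhlhe40 (55.4 ± 8.28) lay in the same range. Klf4, at 111, 67.2, 57.1 and 263 CPM, was highest in replicate 4, as were Cebpb (18.97, 53.1, 56.0 and 64.8 CPM) and Smad3 (13.8, 24.4, 26.7 and 31.9 CPM). Replicate 4 was the lowest library for 12 of the 22 factors of at least 10 CPM and the highest for these 3. Over all genes of at least 10 CPM it was the lowest for 28.9% and the highest for 25.9%. Sall1, the factor that separates microglia from other brain macrophages, was at 3.55, 6.93, 7.03 and 5.09 CPM (5.65 ± 1.66, rank 9595), low in every library but above the floor in each. Of the 26 factors, 22 averaged at least 10 CPM, and the 4 below it were Sall1, Tal1 (5.33 CPM), Sall3 (3.77) and Pparg (3.18).

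The homeostatic signature was unevenly kept. Of 41 genes on the list, 40 were in the tables, 25 averaged at least 10 CPM (62.5%, against 48.7% of all genes), 4 were at 0 in all libraries, and the median rank was 5026. Below Sparc and Cst3, which other cells also express, came the C1q chains: C1qc, C1qa at 952, 785, 789 and 291 CPM (704 ± 287, rank 192) and C1qb at 505, 460, 243 and 76.8 CPM (321 ± 199, rank 532). The 3 genes neighbour each other on chromosome 4 (GRCm38, 136880129 to 136898803, minus strand), and replicate 4 was the lowest library for each. Trem2, the lipid-sensing receptor, was at 198, 232, 137 and 51.5 CPM (155 ± 79.0), and Mertk, a receptor for apoptotic cells, at 164, 107, 161 and 65.8 CPM (124 ± 47.1). Cx3cr1, the fractalkine receptor, was at 153, 101, 112 and 12.9 CPM (94.8 ± 59.1, rank 1972). Replicate 4 was the lowest library for each of these genes.

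The defining surface genes of brain microglia were low or missing. P2ry12, the purinergic receptor of ramified microglia, was at 28.7, 10.4, 14.9 and 0 CPM (13.5 ± 11.9, rank 7393), and Gpr34, a lysophosphatidylserine receptor, at 34.1, 23.5, 31.9 and 0 CPM (22.4 ± 15.6). Each was present in replicates 1 to 3 and without a count in replicate 4. Tmem119 was at 5.39, 14.3, 0 and 5.84 CPM (6.38 ± 5.90, rank 9340), and P2ry13 at 12.8, 3.23, 3.06 and 0 CPM. Siglech, a sialic acid-binding receptor, was at 2.26 CPM in replicate 1 and at 0 in the others, and the same held for Crybb1 at 1.35 CPM. Slc2a5, Upk1b, Slco2b1 and Tmem100 had 0 counts in all 4 libraries, which allows at most 3 counts in each. Fcrls was no row of the tables used here. Set against the label, the general macrophage markers were thus present in full, while P2ry12, Tmem119 and Sall1, which set microglia apart from other macrophages, averaged 5.65 to 13.5 CPM.

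Replicate 4 was the lowest library for 22 of the 25 homeostatic members of at least 10 CPM and the highest for 0, where over all such genes it was the lowest for 28.9% and the highest for 25.9%. The list summed to 7487, 8509, 5598 and 3345 CPM, and to 7198 ± 1477 CPM without replicate 4. Its highest member was Sparc, a matricellular protein that fibroblasts also make, at 749, 2588, 457 and 1125 CPM. Without Sparc the sum was 6738, 5921, 5141 and 2220 CPM, so the high sum of replicate 2 came from that gene. Entpd1, the ectonucleotidase CD39, was at 44.1, 19.2, 27.8 and 1.07 CPM, and Selplg, a P-selectin ligand, at 54.6, 23.2, 37.1 and 7.55 CPM. Tgfbr1, a TGF-β receptor, was the steadiest member at 44.0, 35.6, 37.0 and 37.8 CPM (38.6 ± 3.69).

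**Figure D2:**
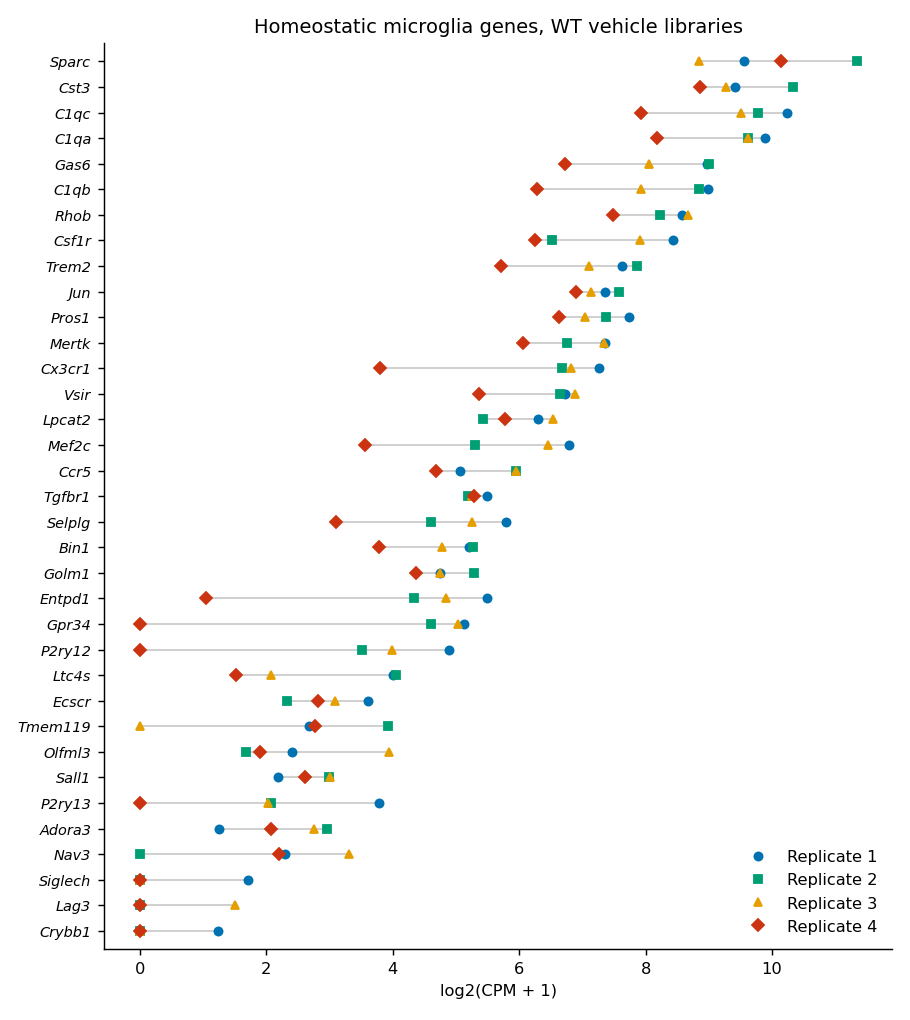
Level of 35 of the 36 homeostatic microglia genes with a count (log2 of CPM + 1, horizontal) in each WT vehicle library, with genes ordered by mean. Points are single libraries and grey lines their range. Replicate 4 (red diamonds) is the leftmost point for most genes, including Cx3cr1 (12.9 CPM), Gpr34 and P2ry12 (both 0).

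Most disease-associated microglia genes were abundant in the cultures. Of the 35 genes, 32 averaged at least 10 CPM and 28 at least 100 CPM, with a median rank of 303. They summed to 60972, 50795, 59411 and 35262 CPM, of which Fth1 was 27.3%. Without Fth1 the sums were 44001, 38935, 42512 and 24630 CPM. Spp1, osteopontin, was at 2246, 2061, 2146 and 2026 CPM (2120 ± 98.3, rank 33), with all libraries within a narrow range. Gpnmb, a glycoprotein of lipid-laden macrophages, was at 1994, 595, 1144 and 862 CPM (1149 ± 607, rank 95). Cd63, a tetraspanin of late endosomes, was at 1132, 1272, 1140 and 1004 CPM (1137 ± 109, rank 96). Spp1 and Cd63 thus differed little between the libraries, and Gpnmb was lowest in replicate 2.

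Igf1 and Fabp5 were far lower in replicate 4 than in the others. Igf1, a growth factor of activated microglia, was at 997, 650, 684 and 140 CPM (618 ± 355), and Fabp5, a fatty acid-binding protein, at 1138, 679, 862 and 373 CPM (763 ± 321). Apoe, the main brain apolipoprotein, was at 697, 593, 415 and 397 CPM (526 ± 144, rank 303). Clec7a, the β-glucan receptor dectin-1, was at 200, 81.8, 250 and 61.7 CPM (148 ± 91.3). Cst7 and Itgax, which mark the disease-associated state in tissue, were low, at 7.47 ± 6.08 and 1.63 ± 2.08 CPM, and Cd74, the class II invariant chain, had counts in replicate 3 only (6.94 CPM). Replicate 4 was the lowest library for 23 of the 32 members of at least 10 CPM, against 28.9% of all genes at that level. The list held several genes of other lists, among them Fth1, Lyz2, Ctsb, Ctsd and B2m, so its sum is not independent of theirs.

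Lysosomal and phagocytic genes were present throughout. All 40 lysosomal hydrolase and membrane protein genes averaged at least 10 CPM and 30 at least 100 CPM (median rank 759), and they summed to 26589, 20433, 23818 and 14883 CPM. Ctsl, a cysteine protease, was at 2823, 2246, 3097 and 2024 CPM (2547 ± 498, rank 27), and Psap, the precursor of the saposins, at 2096, 2316, 2022 and 1432 CPM (1966 ± 378, rank 40). Both kept within a narrow range, with replicate 4 lowest. Of 33 measured phagocytic receptors and bridging molecules, 29 averaged at least 10 CPM (median rank 1555). Msr1, a scavenger receptor, was at 1146, 906, 1739 and 461 CPM (rank 109), and Marco, another scavenger receptor, at 1495, 788, 898 and 371 CPM (888 ± 464, rank 147). Both were lowest in replicate 4, and the list sum was 6911 ± 2298 CPM with that library and 7914 ± 1372 CPM without it. Timd4, a phosphatidylserine receptor of embryonically seeded tissue macrophages, had 0 counts in all 4 libraries.

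Complement genes were expressed for C1q and receptors more than for the later components. After C1qc and C1qa came C3ar1, the C3a receptor, at 803, 409, 789 and 126 CPM (532 ± 326, rank 297), and the chains of complement receptor 3, Itgam (479 ± 241 CPM) and Itgb2 (354 ± 124 CPM). C3 itself, the central component, was at 15.7, 18.6, 26.7 and 19.1 CPM (rank 6153), with no library standing apart. C6 was at 0 in all libraries. Of 22 measured complement genes, 15 averaged at least 10 CPM, and the sum was 4068 ± 1517 CPM with replicate 4 and 4782 ± 626 CPM without it.

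Antigen presentation genes differed by class. Among class I genes B2m, the light chain, led at 2777, 1628, 2685 and 1360 CPM (rank 34). The heavy chains H2-K1 and H2-D1 averaged 753 ± 270 and 539 ± 139 CPM. Of the 18 class I genes, 15 averaged at least 10 CPM and 5 at least 100 CPM. Their median rank was 3939.5, and B2m was 40.6% of their sum. Class II genes were near or at the floor: H2-Eb1, H2-Aa, H2-Ob and H2-Oa had 0 counts in all 4 libraries, Ciita, the class II transactivator, had 1 estimated count in replicate 1 (0.0323 CPM), and H2-Ab1 had 5.93 CPM in replicate 3 and at most 0.375 CPM elsewhere. Of the 12 class II genes, 3 averaged at least 10 CPM. The highest was H2-DMb1, a peptide-loading chain, at 79.6, 30.4, 68.8 and 24.9 CPM, followed by the costimulatory genes Cd86 (35.4 ± 18.6 CPM) and Cd40 (13.1 ± 6.42 CPM).

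Lipid-handling genes were expressed at moderate to high levels. Below Lpl and Fabp5 stood Npc2, which moves cholesterol out of lysosomes, at 1022, 590, 1003 and 569 CPM (796 ± 250). Soat1, the enzyme that esterifies cholesterol, was at 660, 322, 761 and 362 CPM (526 ± 217), and Cd36, a fatty acid and lipoprotein receptor, at 510, 336, 725 and 355 CPM (482 ± 180). These genes were higher in replicates 1 and 3 than in replicates 2 and 4. Of the 24 genes, 21 averaged at least 10 CPM, and the sum was 8026, 5940.5, 7523 and 3996 CPM.

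**Figure D3:**
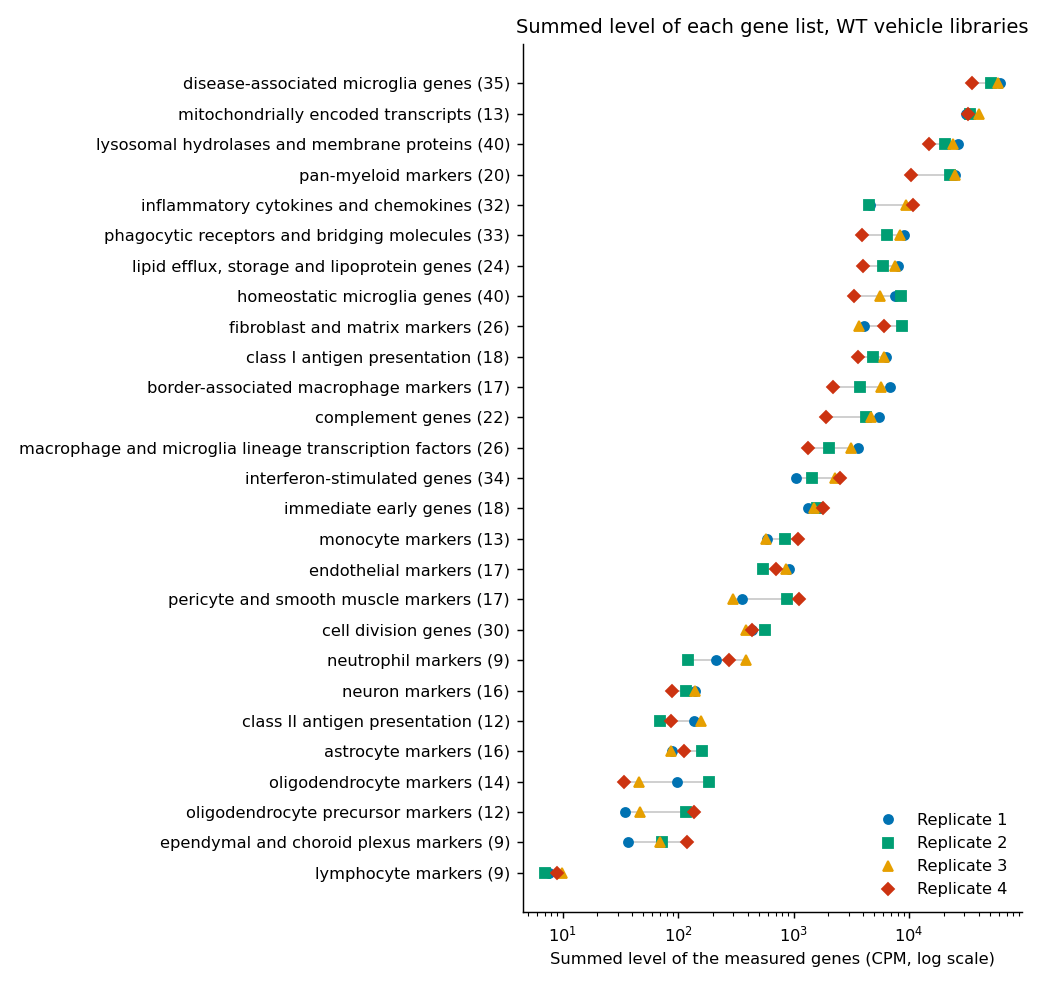
Summed level of each of the 27 gene lists (CPM, log scale) in each WT vehicle library, with the number of measured genes in brackets. Points are single libraries and grey lines their range. The pan-myeloid, homeostatic, disease-associated, lysosomal, phagocytic and complement lists sit above 1000 CPM with replicate 4 (red diamonds) lowest, the cytokine and interferon lists have replicate 4 highest, and lymphocyte markers sit below 10 CPM.

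Inflammatory transcripts were not silent under vehicle, and they varied widely between the libraries. Of 32 cytokines and chemokines, 27 averaged at least 10 CPM, and they summed to 4586, 4471, 9324 and 10862 CPM. Ccl6, a CC chemokine that resting macrophages make, was 42.7% of the sum, at 2343, 2585, 4682 and 2877 CPM. Without it the sum was 2243, 1886, 4642 and 7984 CPM, so replicates 3 and 4 were above replicates 1 and 2. Replicates 1 and 2 were the lowest library for 12 and 11 of the 27 genes (44.4% and 40.7%). Over all genes of at least 10 CPM they were the lowest for 23.7% and 26.7%. Replicates 3 and 4 were the highest for 10 and 13 of the 27 (37.0% and 48.1%), against 21.1% and 25.9% over all such genes.

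The CXC chemokines that attract neutrophils were among the cytokine genes of widest spread. Cxcl2 was at 28.2, 39.3, 166 and 2167 CPM, Cxcl1 at 15.1, 30.8, 123 and 969 CPM and Cxcl3 at 0.935, 0, 14.6 and 57.0 CPM. For each, replicate 3 lay above replicates 1 and 2 and replicate 4 far above replicate 3. The mean of Cxcl2 was 600 ± 1047 CPM over the 4 libraries and 77.9 CPM without replicate 4, and that of Cxcl1 285 ± 459 and 56.3 CPM. Cxcl5 stands in no list and was named because replicate 4 lay far above the rest. It was at 0, 0, 5.70 and 41.6 CPM. The 250 bases before the RefSeq start of the 3 list genes (GRCm38.p6, plus strand) are shown because all 3 hold GGGAATTTCCC, the longest word common to the 3 windows and a form of the NF-κB binding motif, set in capitals:
Cxcl1, chr5:90890995-90891244: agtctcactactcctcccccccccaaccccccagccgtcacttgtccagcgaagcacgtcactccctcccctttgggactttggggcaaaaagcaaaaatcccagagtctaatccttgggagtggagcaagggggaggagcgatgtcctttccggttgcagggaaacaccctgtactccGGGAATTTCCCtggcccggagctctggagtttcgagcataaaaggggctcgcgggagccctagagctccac
Cxcl2, chr5:90903649-90903898: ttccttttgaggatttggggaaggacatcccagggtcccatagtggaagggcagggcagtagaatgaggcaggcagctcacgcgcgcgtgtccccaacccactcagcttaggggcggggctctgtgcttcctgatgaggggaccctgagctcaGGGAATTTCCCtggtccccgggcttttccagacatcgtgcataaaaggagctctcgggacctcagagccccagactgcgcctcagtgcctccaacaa
Cxcl3, chr5:90785851-90786100: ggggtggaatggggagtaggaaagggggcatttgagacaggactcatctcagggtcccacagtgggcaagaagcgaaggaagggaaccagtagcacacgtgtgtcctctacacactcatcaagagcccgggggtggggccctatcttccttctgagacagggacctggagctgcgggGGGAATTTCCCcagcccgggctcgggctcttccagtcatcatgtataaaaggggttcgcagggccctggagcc
The motif begins 71, 97 and 73 bases before the start of Cxcl1, Cxcl2 and Cxcl3. Searched as these exact letters on both strands, it was in 14 of 32851 RefSeq promoter windows of that length (0.0426%). Of 23 cytokine genes matched to a promoter, only these 3 hold it. The word was taken from these 3 windows, so that they hold it is no finding, and a match is a description and not a measured site.

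Other inflammatory genes took different orders. Ccl2, the main monocyte chemokine, was at 202, 215, 360 and 1434 CPM, and Ccl7, its close relative, at 100, 187, 324 and 700 CPM, both highest in replicate 4. Without that library Ccl2 averaged 259 CPM, against 553 ± 592 CPM with it. Ccl5, a T-cell chemokine, was at 209, 15.1, 748 and 190 CPM and Ccl9 at 263, 256, 713 and 159 CPM, both highest in replicate 3. Csf1, which encodes M-CSF itself, was at 205, 169, 212 and 719 CPM. Il12b, a subunit of interleukins 12 and 23, was at 3.42, 0, 19.8 and 86.4 CPM.

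**Figure D4:**
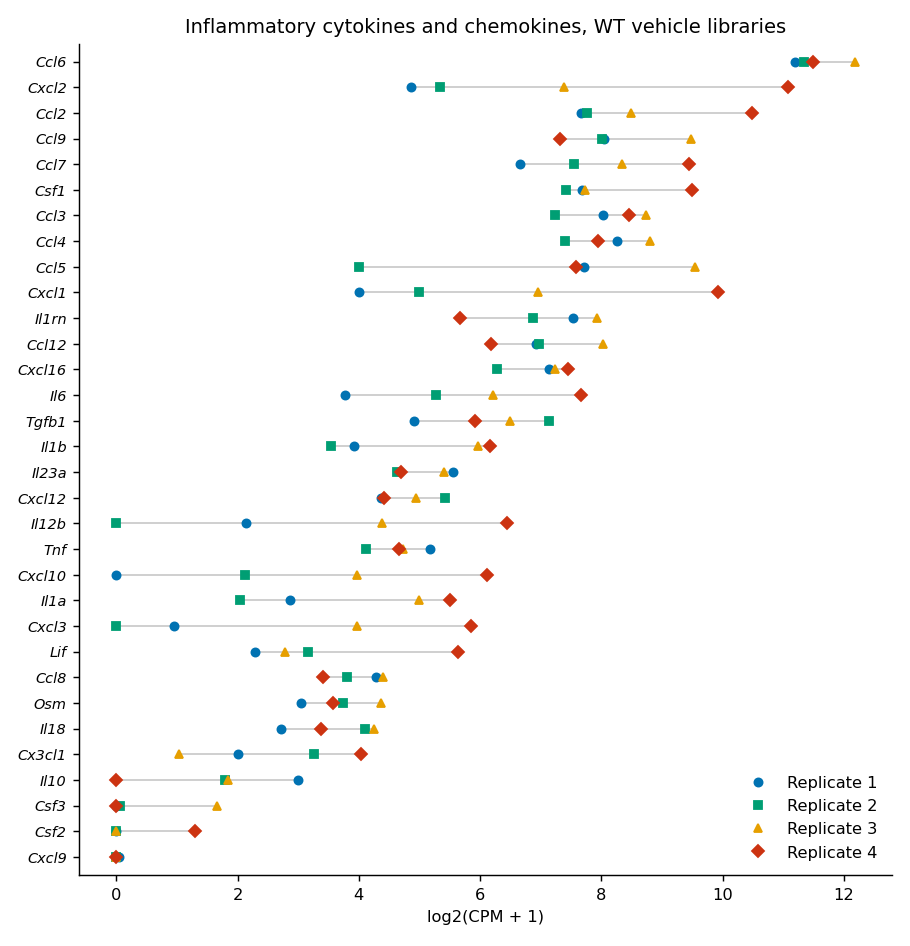
Level of 32 cytokine and chemokine genes (log2 of CPM + 1, horizontal) in each WT vehicle library, with genes ordered by mean. Points are single libraries and grey lines their range. For Cxcl2, Cxcl1 and Il12b replicates 1 and 2 (blue circles, green squares) are leftmost and replicate 4 (red diamonds) is far right of replicate 3 (orange triangles), with Cxcl2 at 2167 CPM in replicate 4.

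Interferon-stimulated genes showed the same split of libraries as the cytokines. Of 34 genes, 26 averaged at least 10 CPM, with a median rank of 4922, and their sums were 1056, 1437, 2298 and 2517 CPM. Isg15, a ubiquitin-like modifier, was at 42.4, 99.6, 305 and 686 CPM (283 ± 291, and 149 CPM without replicate 4), and Rsad2, the antiviral protein viperin, at 29.1, 36.9, 131 and 158 CPM (88.8 ± 65.4). Both were low in replicates 1 and 2 and high in replicates 3 and 4. Ifitm3 and Bst2, antiviral membrane proteins, had less spread, at 339 ± 90.0 and 245 ± 55.7 CPM.

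Division and immediate early genes had list sums that differed by less than a factor of 1.5 between the libraries, while their members took different orders. Of 30 cell division genes, 15 averaged at least 10 CPM, a share close to the 48.7% of all genes. The median rank of the 30 was 8236, against 8471 over all genes, so as a list they stood near the typical gene. The list summed to 437, 564, 389 and 438 CPM. Pcna, the replication clamp, was 29.1% of that sum at 133 ± 5.85 CPM. Mcm7 (31.8 ± 8.73 CPM), Top2a (26.9 ± 6.95), Cenpf (21.7 ± 6.13) and Mcm3 (21.6 ± 3.70) stood below it. Replicate 2 was the highest library for 9 of the 15 and replicate 3 the lowest for 8. Over all genes of at least 10 CPM these shares were 27.9% and 20.6%. The median log2 deviation of the 15 genes from the other libraries was 0.42 in replicate 2 and -0.66 in replicate 3. Immediate early genes summed to 1341, 1595, 1490 and 1801 CPM. Klf6, a zinc finger factor, led them at 404, 460, 472 and 534 CPM (467 ± 53.4), and Jun, Junb and Ier3 averaged 153 ± 30.9, 153 ± 29.7 and 149 ± 67.1 CPM. Replicate 4 was the highest library for 8 of the 13 immediate early genes of at least 10 CPM, against 25.9% of all genes at that level. It was the lowest for 4 of the 13 (30.8%), near the 28.9% over all such genes.

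Markers of other macrophages and blood cells gave a mixed picture. Border-associated macrophage markers summed to 6822, 3750.5, 5741 and 2215 CPM, of which Pf4 was 58.3%. Pf4 was at 4151, 2228, 3390 and 1026 CPM, Ms4a7 at 1152, 640, 777 and 391 CPM, and Mrc1, the mannose receptor, at 749, 364, 723 and 362 CPM. In contrast, the defining genes Lyve1 and Cd163 averaged 3.49 ± 2.20 and 2.83 ± 2.13 CPM. Of 17 such markers, 11 averaged at least 10 CPM (64.7%, against 48.7% of all genes). For 9 of the 11, replicate 4 was the lowest library, against 28.9% of all genes of at least 10 CPM. The share of border-associated macrophages in the cultures was not tested.

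Monocyte and lymphocyte markers were scarce. Monocyte markers summed to 594, 840, 583 and 1082 CPM, but Fn1, fibronectin, was 91.1% of this. Without Fn1 the sum averaged 68.8 ± 15.7 CPM, Ccr2 was at 9.58, 4.11, 4.75 and 2.30 CPM, and Ly6c2 and Ace were at 0 in all libraries. Neutrophil markers summed to 215, 121, 385 and 274 CPM, led by Lcn2 (63.2 ± 22.9 CPM) and S100a8 (60.4, 20.3, 97.2 and 48.6 CPM), while Ltf was at 0 in all libraries. Of 9 measured neutrophil markers, 6 averaged at least 10 CPM (66.7%, against 48.7% of all genes), and 5 more were not in the tables. Replicate 3 was the highest library for 5 of the 6, against 21.1% of all genes of at least 10 CPM. Lymphocyte markers summed to 7.12 to 9.86 CPM over 9 measured genes, with 0 of them at 10 CPM or above, and Cd3g and Ms4a1 at 0 in all libraries. Cd3e, a T-cell receptor chain, had 1.37 CPM in replicate 3 and 1.23 CPM in replicate 4.

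Neural markers were near the floor. Astrocyte markers summed to 88.9, 161, 87.7 and 112 CPM, with 4 of 16 at or above 10 CPM. Gja1, a connexin that other cells also make, led them at 10.2, 25.3, 36.9 and 57.6 CPM, while the defining genes Gfap (2.90, 1.16, 0 and 0 CPM) and Aqp4 (0, 1.06, 0 and 0 CPM) were nearly without counts and Gjb6 was at 0 throughout. Oligodendrocyte markers summed to 97.3, 187, 46.3 and 33.9 CPM (mean 91.2 CPM, and 59.2 CPM without replicate 2). Mbp, which encodes a myelin protein, was at 60.3, 51.0, 20.1 and 5.30 CPM, and the lineage factors Sox10 and Olig2 were at 0 in all libraries. Neuron markers averaged 122 ± 24.5 CPM, of which Stmn2 was 59.7%. Snap25 had 1.39 CPM in replicate 2 and 0 elsewhere, and Rbfox3, Slc17a7 and Gad2 were at 0 throughout. Ttr, the choroid plexus transcript, was at 0, 1.34, 0 and 20.4 CPM.

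Stromal genes were expressed at far higher levels than neural genes. Fibroblast and matrix markers summed to 4094, 8777, 3698 and 6069 CPM, with 21 of 26 at or above 10 CPM and a median rank of 3196. Sparc, which stands in the homeostatic list as well, was 21.7% of this. Without Sparc the sums were 3345, 6189, 3241 and 4944 CPM. Fn1 is likewise shared with the monocyte list. Dcn, the proteoglycan decorin, was at 1049, 1179, 900 and 873 CPM (1000 ± 142, rank 121). Col3a1 and Col1a1, fibrillar collagens, were at 315, 502, 229 and 299 CPM and at 167, 352, 155 and 150 CPM. Mgp, the matrix Gla protein, was at 112, 1042, 383 and 577 CPM, and Lox, which crosslinks collagen, at 246, 475, 305 and 744 CPM. Replicate 2 was the highest library for 15 of the 21 genes, where it was the highest for 27.9% of all genes of at least 10 CPM, and the sum averaged 4620 CPM without it against 5660 ± 2323 CPM with it.

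Pericyte and smooth muscle genes summed to 359, 876, 297 and 1109 CPM. Replicate 2 was the highest library for 6 of the 8 genes of at least 10 CPM, against 27.9% of all genes at that level. The high sum of replicate 4 came from the contractile genes Tagln and Acta2. Tagln, an actin-binding protein of smooth muscle, was at 179, 296, 190 and 623 CPM, Acta2, smooth muscle actin, at 76.4, 155, 48.6 and 336 CPM, and Rgs5, a pericyte gene, at 5.71, 148, 9.81 and 34.8 CPM. Pdgfrb, the defining pericyte receptor, was at 24.4, 46.9, 12.7 and 11.8 CPM, and Pdgfra, its relative on fibroblasts and oligodendrocyte precursors, at 10.2, 79.7, 8.81 and 35.4 CPM. Endothelial markers averaged 759 ± 166 CPM, of which Pecam1, an adhesion molecule that macrophages also carry, was 71.4%, at 778, 313, 610 and 469 CPM. Without Pecam1 the endothelial sums were 137, 234, 256 and 241 CPM. Of 17 measured endothelial markers, 8 averaged at least 10 CPM (47.1%, against 48.7% of all genes). Cldn5, the endothelial tight junction gene, was at 0 in all 4 libraries. The part of stromal cells in the lower myeloid levels of replicate 4 was not tested.

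Spread between the libraries depended on level and was wide. The median SD of log2(CPM + 1) was 1.10 for 4493 genes of 1 to 10 CPM, 0.51 for 6393 genes of 10 to 100 CPM, 0.34 for 1741 genes of 100 to 1000 CPM and 0.32 for the 121 genes above that. The common dispersion over genes of at least 10 CPM, from edgeR, was 0.218, a biological coefficient of variation of 0.467. Across genes, which are not independent replicates, log2 levels of library pairs had a Pearson r between 0.814 (replicates 1 and 4) and 0.889 (replicates 1 and 3). Between 1252 and 2063 of the 8255 genes differed more than 2-fold within a pair. Among the steadiest genes of at least 10 CPM, Shisa5 was at 211, 211, 214 and 217 CPM, Spcs2, a signal peptidase subunit, at 315, 312, 328 and 322 CPM, and Rtn4, a reticulon of the endoplasmic reticulum, at 2116, 2051, 1965 and 2016 CPM.

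**Figure D5:**
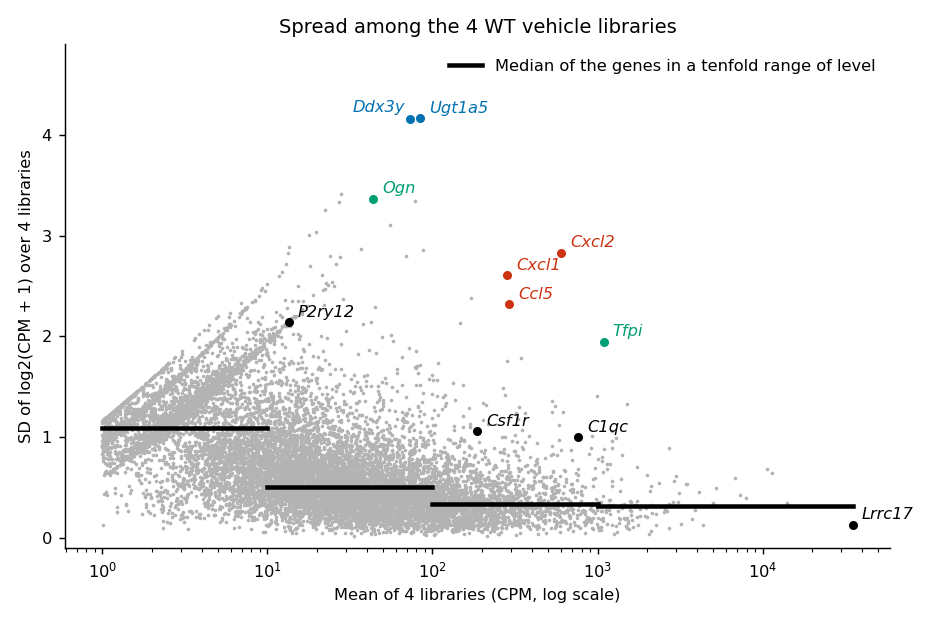
SD of log2(CPM + 1) over the 4 WT vehicle libraries (vertical) against mean CPM (log scale) for genes of at least 1 CPM. Black bars are the medians of the genes in ranges of level from 1, 10, 100 and 1000 CPM (1.10, 0.51, 0.34 and 0.32). Cxcl2, Cxcl1, Ccl5 and Tfpi lie far above the bars at their level, and Lrrc17 lies below.

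The largest spreads had several forms. Ddx3y and Eif2s3y, both Y-linked, had counts in replicates 2 and 3 only (Eif2s3y at 33.8 and 37.7 CPM). Gm26992 had the opposite pattern, at 39.97, 0, 0 and 69.3 CPM, and 405 of its 438 windows of 31 bases also lie in Tsix, the antisense gene of the X-inactivation locus. Others were near-copies between which estimated counts can be split: Ugt1a5 was at 335 CPM in replicate 1 and at 0.0456 to 0.0536 CPM in the others, while Ugt1a6a was at 0, 52.2, 142 and 28.3 CPM. These glucuronosyltransferase genes share their last exons (65.3% and 96.8% of their windows occur in another gene), and the 6 Ugt1a genes together were at 408, 218, 314 and 162 CPM. Likewise mt-Nd4l was at 0, 0, 0 and 112 CPM and shares 98.9% of its windows with a nuclear copy, Gm10222. Single values of such genes are therefore uncertain. In all, 1542 genes had at least 100 counts in 1 library and 0 in another, of which 71 averaged at least 10 CPM.

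Some genes stood apart in a single library or pair of libraries. Replicate 2 was far above the others for Tfpi, an inhibitor of blood clotting, at 195, 3561, 223 and 373 CPM (1088 ± 1650, rank 101, and 264 CPM without that library). It was also above them for Inmt (7.19, 287, 2.42 and 52.4 CPM), and for elastin, Eln (0.419, 58.4, 0.730 and 2.25 CPM). Ogn, a matrix proteoglycan, was at 0, 74.6, 1.64 and 98.7 CPM, high in replicates 2 and 4, which were also the higher libraries for Tagln and Acta2. Replicate 1 was highest for Slc13a3, a dicarboxylate transporter, at 220, 28.0, 67.3 and 0 CPM, and for Cd209f, a C-type lectin of border macrophages, at 89.9, 3.51, 10.2 and 0 CPM. Serpinb2, a plasminogen activator inhibitor of activated macrophages, was at 61.2, 8.64, 277 and 339 CPM, with the order of the cytokines.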

How the data were processed

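The 4 WT vehicle libraries were picked by sample title from the 19 of the series, and the gene lists and the rule for naming genes were chosen with earlier results of these data known. The authors deposited estimated counts for each gene symbol, whole numbers in the tables, which kallisto gives per the submitters' processing notes. Those notes also name FastQC, Trimmomatic and DESeq2. Not given in the sources used here were the genome and annotation build, tool versions, strand setting and any collapse of molecular identifiers. The tables held 16941 genes, the smallest with 10 counts over the 19 libraries, and 0 ERCC spike-in rows.

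CPM were computed here with TMM factors from edgeR 4.0.16 (R 4.3.3, limma 3.58.1) over the 19 libraries, and spread as the SD of log2(CPM + 1). Counts of 3 or fewer are treated as the floor, for counting error only. Library pairs had a chi-square per degree of freedom of 118 to 246, so none was a copy of another. The dispersion step was checked on simulated data.

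Genes named are the 25 highest, Csf1r, C1qc, Ctsd and Lpl, up to 6 highest members of each list (any member for the homeostatic, lineage factor and disease-associated lists), defining or absent markers of other cell types, the 15 genes of largest and of smallest spread, and the 10 furthest above or below in each library. Exceptions chosen after their values were seen are Or13c7c, Tatdn1, C3, C6, Timd4 and the class II genes below Cd40. Sequences and positions come from GENCODE M21 (GRCm38) and RefSeq (GRCm38.p6). Windows of 31 bases of all transcripts were matched between genes. Alternatives were unadjusted totals, TMM over the 4 libraries, DESeq2 1.42.0 size factors, other filters and pseudocounts, and leaving out each library. Single values of some genes that this rule names are not reported here.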

Additional observations from a re-analysis of the deposited data

Results flagged for a closer look

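Over 27 lists and 187 genes named in the text, a library was looked for whose gap to its nearest neighbour took a larger part of the whole range of the 4 than Dixon's critical value at 95%. Chance gives this in about 1 in 20 groups, and of the 8255 genes of at least 10 CPM, 463 (5.61%) had it. It held for 1 list and 21 genes, of which 9 pointed to replicate 4. Of the 21 genes, 9 were named because of their large spread or their distance from the rest in 1 library, so their meeting this measure is no finding and their number is not to be read against chance. For 7 genes, mt-Nd4l among them, the other libraries were at 0, where the measure is met whatever the remaining value.

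In replicate 4, the pan-myeloid list (10441 CPM, others 22496 to 24813 CPM) and Tmsb4x (5454 CPM, others 12860 to 13668 CPM) were set below the rest. For the list this rested on Lyz2, which was 51.6% of the sum. Without Lyz2 the sums of replicates 1 to 4 were 13070, 8384, 13002 and 5541 CPM. Replicate 4 was still lowest there, but its gap to replicate 2 was too small a part of the range to meet the measure. Set above the rest in replicate 4 were 4 chemokine genes and the growth factor Csf1: Cxcl2 (2167 CPM, others at most 166 CPM), Cxcl1 (969 CPM, others at most 123 CPM), Ccl2 (1434 CPM, others at most 360 CPM), Cxcl5 (41.6 CPM, others at most 5.70 CPM) and Csf1 (719 CPM, others at most 212 CPM). Ttr (20.4 CPM, others at most 1.34 CPM) and mt-Nd4l (112 CPM, others 0) were also high there. A low myeloid sum and high neutrophil chemokines thus fell in the same library.

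In replicate 2, Tfpi (3561 CPM, others at most 373 CPM), Col1a1 (352 CPM, others at most 167 CPM) and Eln (58.4 CPM, others at most 2.25 CPM) were set above the rest, as were Snap25 (1.39 CPM) and Aqp4 (1.06 CPM), each at 0 elsewhere. In replicate 1 these were Crct1 (482 CPM, others at most 64.4 CPM), Ugt1a5 (335 CPM, others at most 0.0536 CPM), Cd209f (89.9 CPM, others at most 10.2 CPM), and Siglech (2.26 CPM) and Crybb1 (1.35 CPM), both at 0 elsewhere. Ciita (0.0323 CPM in replicate 1, 0 elsewhere) had 1 estimated count, which is under the floor of 3 counts and does not set that library apart. In replicate 3 they were Cd74 (6.94 CPM, others 0) and H2-Ab1 (5.93 CPM, others at most 0.375 CPM), both class II genes.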

How the results depend on the processing

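No paired analysis was possible because the values come from a single group and from no test. The sums of the 27 lists stayed within the SD of the 4 libraries under each of 4 other scalings or filters (changes of -3.06% to 2.09%). With each library left out in turn they changed by -35.1% to 20.9%. Leaving out 1 of 4 values cannot move their mean by as much as their SD, so the SD is no test of the latter changes. The lowest of the latter was the oligodendrocyte list without replicate 2, at 59.2 CPM. Counts were judged by a factor of 1.5. With a minimum of 1 CPM, 12748 genes passed in place of 8255. Of the 8255, 795 had an SD of log2 CPM above 1, which became 377 with a pseudocount of 5 CPM, 3435 over genes of at least 1 CPM and 138 over genes of at least 50 CPM. The common dispersion of 0.218 became 0.835 and 0.125 over the latter sets, which differ in level by construction. Depth limits the genes near the floor of 3 counts, where a value of 0 in a library does not show absence.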

Other observations

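Some lists and genes outside the accounts above also had counts. Oligodendrocyte precursor markers summed to 34.9, 117, 47.0 and 137 CPM in replicates 1 to 4. Vcan, a matrix proteoglycan that stands in the monocyte list as well, was 42.8% of this, and C1ql1 and Lhfpl3 were at 0 in all libraries. Ependymal and choroid plexus markers summed to 36.6, 72.3, 69.7 and 120 CPM, of which Ccdc153 was 74.3%. Both lists were lowest in replicate 1 and highest in replicate 4.

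Other genes of large spread between the libraries had their extreme level in replicate 1 or 4. Crct1, a gene of the epidermal differentiation cluster, was at 482, 29.9, 64.4 and 14.7 CPM, and Hpgd, which breaks down prostaglandins, at 58.7, 14.4, 5.75 and 2.30 CPM, both highest in replicate 1. Sesn1, a stress-induced sestrin, was at 67.2, 72.5, 39.4 and 1.55 CPM, and Tmod1, which caps actin filaments, at 41.6, 18.9, 26.4 and 0 CPM, both lowest in replicate 4. Ifi44, an interferon-induced gene, was at 0, 11.5, 32.6 and 105 CPM.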
